A study of Mus musculus with 16 samples.

Results

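The chemokines and their receptors were followed here in mouse skin tumors that lack p53, with or without pRb, and in control skin. A gene was taken as a member where a probeset of the array carried a single gene symbol that began with Ccl, Cxcl, Ccr or Cxcr and a number, or that was Cx3cl1, Cx3cr1, Xcl1, Xcr1 or Ackr3. This gave 51 genes of 18193 with such a probeset, 33 of them ligands and 18 receptors. They were measured by 79 probesets of 45037, and each gene was read from the probeset with the highest mean over all arrays. Another 4 probesets that name Ccl27a, Ccl19 or Ccl21 genes jointly with other genes were left out, because their signal cannot be given to 1 gene.

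Total RNA of 16 tissue samples had been hybridised to Affymetrix MOE430 2.0 arrays. Of these, 4 were skin of control mice, 7 were carcinomas of k14Cre;p53loxP/loxP mice (p53 tumors) and 5 were carcinomas of k14Cre;p53loxP/loxP;pRbloxP/loxP mice (pRbp53 tumors), all on the FVB background. In these mice the keratin 14 promoter drives Cre in stratified epithelia, so that the floxed alleles are lost in epithelial cells and not in the stroma, and the tumors arise spontaneously. The study describes its control skin as normal and wild type; ages are not in the labels used here. By their labels, 3 tumors were poorly differentiated (p53 tumors 2, 4 and 5), 1 was undifferentiated (p53 tumor 3), 5 were spindle cell carcinomas (p53 tumor 6 and pRbp53 tumors 1, 2, 3 and 5), and 3 were mixed (p53 tumors 1 and 7 and pRbp53 tumor 4). All 3 poorly differentiated tumors were therefore p53 tumors. Whether the samples of a group came from separate mice is not stated, and p-values here speak to sample-to-sample spread alone, which may be technical.

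Chemokines are small secreted proteins that bind G protein-coupled receptors on leukocytes and other cells and direct where those cells move. CXC ligands with an ELR sequence, such as Cxcl1, Cxcl2 and Cxcl5, act on Cxcr2 and draw neutrophils. Cxcl9, Cxcl10 and Cxcl11 are induced by interferons and act on Cxcr3 of T and NK cells, and the CC ligands Ccl2, Ccl7 and Ccl12 draw monocytes through Ccr2. In skin, Ccl27a and Ccl17 draw memory T cells, Ccl20 draws Ccr6-bearing cells, and Cxcl12 of dermal stromal cells acts on Cxcr4 and is scavenged by Ackr3.

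Many of these genes lie beside each other in the genome. In the RefSeq gene table of GRCm38.p6, where all 51 were found by gene ID, 30 had another member as a neighbour with at most 2 protein-coding genes between. One run holds Ccl2, Ccl7, Ccl11, Ccl12, Ccl8 and Ccl1 in this order, another holds Ccl5, Ccl9, Ccl6, Ccl3 and Ccl4, and another holds Cxcl5, Cxcl3, Cxcl15, Cxcl1 and Cxcl2. Of the receptors, Ccr9, Cxcr6, Xcr1, Ccr1, Ccr1l1, Ccr3 and Ccr2 form a run. Neighbours did not share 1 pattern, as the values of Ccl2 and Ccl11 in the sections that follow show.

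Promoter sequence is printed for 4 ligands whose values differed widely between tumors or rose in them. The sequences are from RefSeq (GRCm38.p6), read on the strand of the gene and ending at the base before the annotated start. Of the members, 38 had an entry in the promoter table, with 42 windows. Cxcl1, Cxcl2 and Cxcl3 are shown over 120 bases, with matches to GGGNNTTTCC, the shape of a classical NF-kB site, in capitals. Cxcl10 is shown over 230 bases, with the match to GAAANNGAAA, the core of the interferon-stimulated response element, in capitals.
Cxcl1, chr5:90891125-90891244, plus strand: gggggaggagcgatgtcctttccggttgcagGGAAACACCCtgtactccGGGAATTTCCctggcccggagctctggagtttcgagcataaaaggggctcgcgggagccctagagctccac
Cxcl2, chr5:90903779-90903898, plus strand: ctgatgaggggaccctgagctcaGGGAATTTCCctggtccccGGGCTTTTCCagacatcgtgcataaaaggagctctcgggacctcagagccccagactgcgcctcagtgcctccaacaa
Cxcl3, chr5:90785981-90786100, plus strand: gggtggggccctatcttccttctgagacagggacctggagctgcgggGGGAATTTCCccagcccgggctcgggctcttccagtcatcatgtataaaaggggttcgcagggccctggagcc
Cxcl10, chr5:92348890-92349119, minus strand: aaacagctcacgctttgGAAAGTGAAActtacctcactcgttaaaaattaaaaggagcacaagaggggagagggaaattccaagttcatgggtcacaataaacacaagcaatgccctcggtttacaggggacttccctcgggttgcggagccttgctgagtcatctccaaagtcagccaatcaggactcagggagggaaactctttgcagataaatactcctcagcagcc
Searched on both strands over 250 bases before the start, GGGNNTTTCC was found in 1.41% of all 32851 windows and in 6 of the 42 windows of members, those of Cxcl1, Cxcl2, Cxcl3, Ccl20, Ccl9 and Ccr3. GAAANNGAAA was found in 2.98% of all windows and in 2 windows of members, those of Cxcl10 and Cxcl14. No window of a member held both. A match of letters is a description of the sequence and was not tied here to binding or to expression.

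The arrays were even in their medians, which lay between 5.63 and 5.76 on the log2 scale. The difference between the 3' and 5' probesets of actin, a sign of RNA degradation, reached 1.67 in p53 tumor 7 and 1.33 in control skin 3 and lay between 0.21 and 0.68 in the other 14 arrays. The milk casein gene Csn2 exceeded 6 in 5 arrays, control skin 3 and p53 tumors 2, 3, 4 and 5, reaching 13.67, and lay between 3.10 and 4.47 in the others; the 5 include all 3 poorly differentiated tumors. Control skin 2 and 4 were closer to each other, with an SD of 0.22 between their log2 values, than any other pair, and were kept as 2 samples. In these tissues, fewer cells of a type and less RNA per cell cannot be told apart.

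Members varied among tumors more than most genes did. The SD over the 12 tumors had a median of 0.68 over the members and of 0.42 over all 18193 genes, and it was above 1 for 22 members (43.1%) and for 14.4% of all genes. Cxcl13, the B cell attractant, had the widest range among members, from 4.07 in p53 tumor 4 to 12.50 in pRbp53 tumor 3. At the other end, 13 members lay below the median of the array in every sample, Ccr3, Ccr4, Ccr8, Ccr9 and Cxcr5 among them, and differences between such dim probesets are compressed.

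**Figure D1:**
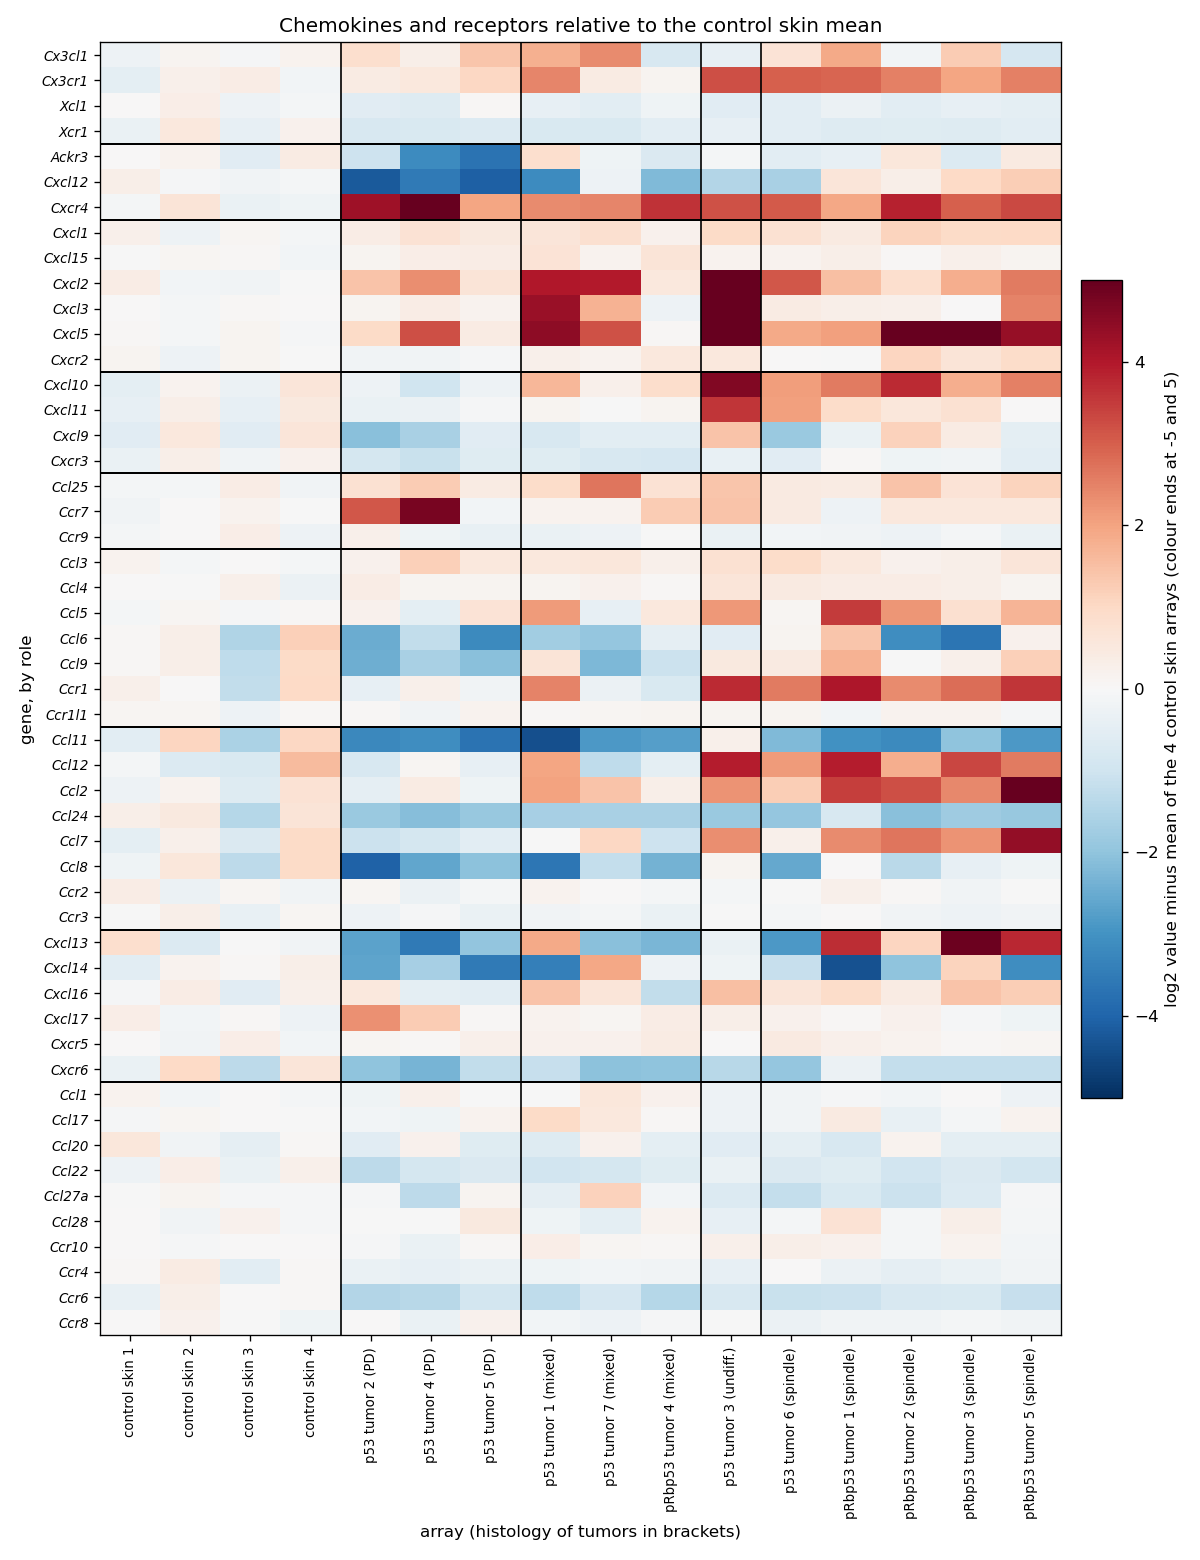
Log2 value of each of the 51 members in each of the 16 arrays minus its mean over the 4 control skin arrays, with genes in rows grouped by role and arrays in columns grouped by histology (PD, poorly differentiated; undiff., undifferentiated). Cxcr4 is above the control mean in all 12 tumors, and Cxcl12 is far below it in the 3 poorly differentiated tumors.

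Tumors of both genotypes were first set against control skin. Of the 51 members, 4 were higher in the 12 tumors and 7 were lower by limma, at an adjusted p below 0.05 over all 45037 probesets, and 40 did not pass. The share that passed as higher was 7.84%, against 7.57% of all genes, and the share that passed as lower was 13.7%, against 9.17% of all genes. Cxcr4, Ccl25, Ccl3 and Cxcl1 rose, while Ccl11, Ccl24, Cxcr6, Ccr6, Ccl22, Xcr1 and Xcl1 fell. The median difference over all members was 0.06, as it was over all genes. Without the 5 arrays with Csn2 above 6, 3 members were higher and 7 lower, with Ccl25 (adjusted p = 0.0934) and Ccl3 (adjusted p = 0.0595) lost and Cx3cr1 (2.10, adjusted p = 0.049) gained. Without control skin 3 and p53 tumor 7, 3 were higher and 8 lower, with Ccl3 lost (adjusted p = 0.077) and Ccr4 gained (-0.46, adjusted p = 0.0166). With control skin 2 and 4 averaged, 2 were higher and 5 lower, with Ccl25 (adjusted p = 0.121), Ccl3 (0.0895), Cxcr6 (0.081) and Xcl1 (0.0873) lost. Calls over all 45037 probesets fell too, from 5949 in the main fit to 5181, 5007 and 4188 in these fits, in the order given. Tumors and control skin did not overlap for 4 members with higher values in tumors, against 3.86% of all genes, and for 2 with lower values, against 5.54% of all genes.

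Cxcr4, the receptor of Cxcl12, rose by 3.18 ± 0.48 (SE, log2; 9.04-fold; adjusted p = 2.655e-04). Its log2 values were 5.39, 6.17, 5.19 and 5.28 in control skin 1 to 4, and 7.44, 8.64 and 10.68 as the lowest, median and highest of the 12 tumors. Every tumor lay above every control, with the highest values in p53 tumors 2 and 4, which are 2 of the 3 poorly differentiated tumors. The third of these, p53 tumor 5, was among the lowest tumors, at 7.48. Cxcl12 itself had 11.22, 10.85, 10.74 and 10.81 in control skin 1 to 4 and ranged from 6.71 to 12.13 in tumors. Its difference of -1.44 ± 0.97 over both genotypes did not pass (adjusted p = 0.374). With p53 tumors alone against control skin, Cxcl12 passed as lower by limma (-2.61, adjusted p = 0.0404), and with pRbp53 tumors alone it did not pass. Ackr3, the scavenging receptor, differed by -0.72 ± 0.67 over both genotypes and did not pass.

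Among the neutrophil attractants, Cxcl1 passed, with a rise of 0.71 ± 0.16 (1.63-fold, adjusted p = 0.0061). It had 7.68, 7.19, 7.50 and 7.31 in control skin 1 to 4 and 7.64, 8.17 and 8.54 as lowest, median and highest in tumors, so that pRbp53 tumor 4 alone lay below the highest control. This brightest probeset is also the least responsive of the 3 for Cxcl1. The others differed by 3.12 ± 0.73 and 1.77 ± 0.48, and both passed.

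Cxcl2 and Cxcl5, which act on the same receptor, had larger differences that did not pass in the main limma fit. The methods' t-test, computed here with a separate variance for each group, called both (adjusted p = 0.0059 for Cxcl2 and 0.0051 for Cxcl5). Limma with array weights called both too (adjusted p = 0.0055 and 0.0018). Leaving out 1 array called Cxcl2 (p53 tumor 3 or 5 or pRbp53 tumor 4, adjusted p between 0.0355 and 0.0499). It called Cxcl5 without p53 tumor 2 or 5 or pRbp53 tumor 4 (between 0.031 and 0.0455). With pRbp53 tumors alone limma called Cxcl2 (adjusted p = 0.028), and with brighter probesets alone Cxcl5 (0.0387). Cxcl2 had 3.84, 3.33, 3.27 and 3.43 in control skin 1 to 4 and 3.99, 5.53 and 9.95 as lowest, median and highest in tumors, with no overlap, and differed by 2.43 ± 0.84 (adjusted p = 0.069). Cxcl5 had 3.49, 3.34, 3.59 and 3.37 in the controls and 3.51, 6.64 and 9.99 in tumors, and differed by 3.26 ± 1.09 (adjusted p = 0.0595). The tumors were spread over 5.96 log2 units for Cxcl2 and 6.48 for Cxcl5. Cxcl3 was above 7 in p53 tumors 1 and 3, at 5.34 in pRbp53 tumor 5, at 4.59 in p53 tumor 7, and between 2.63 and 3.27 in the other 8 tumors, against 2.76 to 2.93 in control skin. Ccl2, the monocyte attractant, was the third of the largest differences that did not pass, at 1.78 ± 0.83 (adjusted p = 0.183), with 6.11, 6.55, 5.73 and 7.10 in control skin and 5.93, 8.10 and 11.64 as lowest, median and highest in tumors. By the methods' t-test Ccl2 passed too (adjusted p = 0.0413), as it did by limma with array weights (0.0301) and with pRbp53 tumors alone (0.0393). The 3 p53 tumors with the highest Cxcl2, numbers 1, 3 and 7, were also the 3 highest p53 tumors for Cxcl3, whereas Cxcl5 reached 9.92 in pRbp53 tumor 2 and 9.99 in pRbp53 tumor 3, where Cxcl3 lay at 3.11 and 2.87. Their receptor Cxcr2 was dim in every array, between 3.69 and 5.04, and did not pass. Of the 7 neutrophil markers measured, S100a8 passed as higher and the other 6 did not pass; the mean over the list lay between 5.45 and 5.81 in control skin and between 5.46 and 8.48 in tumors, and its part in these values was not tested.

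The remaining members that rose were Ccl25, best known for drawing Ccr9-bearing lymphocytes to thymus and gut, and Ccl3, a macrophage inflammatory protein. Ccl25 rose by 1.02 ± 0.32 (2.03-fold, adjusted p = 0.0437), from 5.11, 5.09, 5.56 and 4.99 in control skin to 5.58, 6.05 and 7.85 as lowest, median and highest in tumors. The highest value was in p53 tumor 7, 1 of the 2 arrays with high actin differences. Leaving out any control array, or any of p53 tumors 1, 3 and 4 and pRbp53 tumors 2 and 5, ended the call of Ccl25, with an adjusted p between 0.0545 and 0.126. The other probeset of Ccl25 rose by 0.93 ± 0.20 by limma (adjusted p = 0.0055), with its highest value, 6.72, in p53 tumor 3. Ccl3 rose by 0.55 ± 0.16 (1.47-fold, adjusted p = 0.0271) but stayed dim, with 3.87, 3.58, 3.69 and 3.57 in control skin and 3.91, 4.20 and 4.88 in tumors, and lost its call without control skin 2, 3 or 4 (adjusted p between 0.0682 and 0.0897).

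The eosinophil attractants Ccl11 and Ccl24 fell. Ccl11 had 7.99, 9.57, 6.94 and 9.54 in control skin 1 to 4 and 4.12, 5.55 and 8.77 as lowest, median and highest in tumors, a difference of -2.75 ± 0.64 (6.74-fold, adjusted p = 0.0084). A single tumor, the undifferentiated p53 tumor 3, overlapped the controls. Ccl24 had 8.35, 8.57, 6.67 and 8.71 in control skin and 5.93, 6.23 and 7.26 in tumors, and fell by 1.76 ± 0.30 on the log2 scale (adjusted p = 0.0007462). Control skin 3, the control with the high actin difference, was the lowest control for both, and both calls held when it was left out together with p53 tumor 7. Neither passed by the methods' t-test (adjusted p = 0.0631 for Ccl11 and 0.11 for Ccl24). With p53 tumors alone against control skin, Ccl11 did not pass by limma (adjusted p = 0.057). The receptor Ccr3 lay between 3.08 and 3.73 everywhere.

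The other members that fell were Ccr6, Xcr1, Xcl1, Ccl22 and Cxcr6. Of the 10 ligands and receptors of skin and barrier homing, Ccr6 and Ccl22 passed as lower, none passed as higher and 8 did not pass, Ccr4, Ccr8, Ccr10, Ccl17, Ccl20 and Ccl27a among them. Ccr6, carried by skin T cells and some dendritic cells, had 5.76, 6.43, 6.17 and 6.22 in control skin and 4.69, 5.05 and 5.40 as lowest, median and highest in tumors, with no overlap and a difference of -1.08 ± 0.15 (adjusted p = 0.0001458). Its ligand Ccl20 lay between 4.79 and 5.81 in control skin and between 4.45 and 5.45 in tumors and did not pass. Xcr1, a receptor of cross-presenting dendritic cells, had 4.22, 5.04, 4.12 and 4.74 in control skin against 3.74, 3.89 and 4.10 in tumors, again without overlap, and its ligand Xcl1, made by T and NK cells, had 4.77, 5.07, 4.51 and 4.66 against 4.09, 4.25 and 4.83. Xcr1 fell by 0.64 ± 0.13 (adjusted p = 0.0043) and Xcl1 fell by 0.43 ± 0.12 (adjusted p = 0.0323). These 2 probesets were below the median of every array.

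Ccl22, a dendritic cell product that draws Ccr4-bearing T cells, had 5.51, 6.12, 5.43 and 6.02 in control skin and 4.44, 4.96 and 5.44 in tumors, a difference of -0.81 ± 0.16 (adjusted p = 0.0025), with an overlap of 1 tumor, p53 tumor 3. Cxcr6, a receptor of tissue-resident T cells, had 5.42, 6.76, 4.45 and 6.35 in control skin and 3.41, 4.44 and 5.45 in tumors, a difference of -1.50 ± 0.38 (adjusted p = 0.0161). Its other probeset differed by -0.99 ± 0.23 and also passed by limma (adjusted p = 0.00999). The call of Cxcr6 was lost without control skin 2 (-1.16, adjusted p = 0.0877) or 4 (-1.29, adjusted p = 0.0754), and that of Xcl1 without control skin 1, 2 or 4 (adjusted p between 0.0588 and 0.153). None of Ccl22, Cxcr6, Xcl1 and Xcr1 passed by the methods' t-test (adjusted p between 0.0602 and 0.169), whereas Ccr6 did. Control skin 2 and 4, the closest pair of arrays, held the highest values of Cxcr6, Ccl22, Xcr1 and Ccl24.

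Markers of several cell types fell as well. Of 8 T and NK cell markers, 4 passed as lower and none as higher by limma, among them Cd3g by -3.62 and Cd3e by -1.32, and the mean over the list was 6.64 to 6.93 in control skin and 5.08 to 6.21 in tumors. Of 8 Langerhans and dendritic cell markers, 3 passed as lower, with Cd207 at -4.08 and Cd209a at -4.06, and the list mean was 8.14 to 9.33 against 6.20 to 7.96. That list includes Xcr1, itself a member, which is among those that passed. Of 6 mast cell markers, 4 passed as lower, with a list mean of 6.79 to 8.69 in control skin and 4.91 to 8.67 in tumors, and of 5 keratinocyte markers, 3 passed as lower, with 12.64 to 12.84 against 4.98 to 11.92. All 4 skeletal muscle markers and all 3 adipocyte markers also fell. The part of these cell types in the differences of Ccr6, Cxcr6, Xcl1, Xcr1, Ccl22, Ccl11 and Ccl24 was not tested. RMA values have no true zero, so no marker can be called absent.

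**Figure D2:**
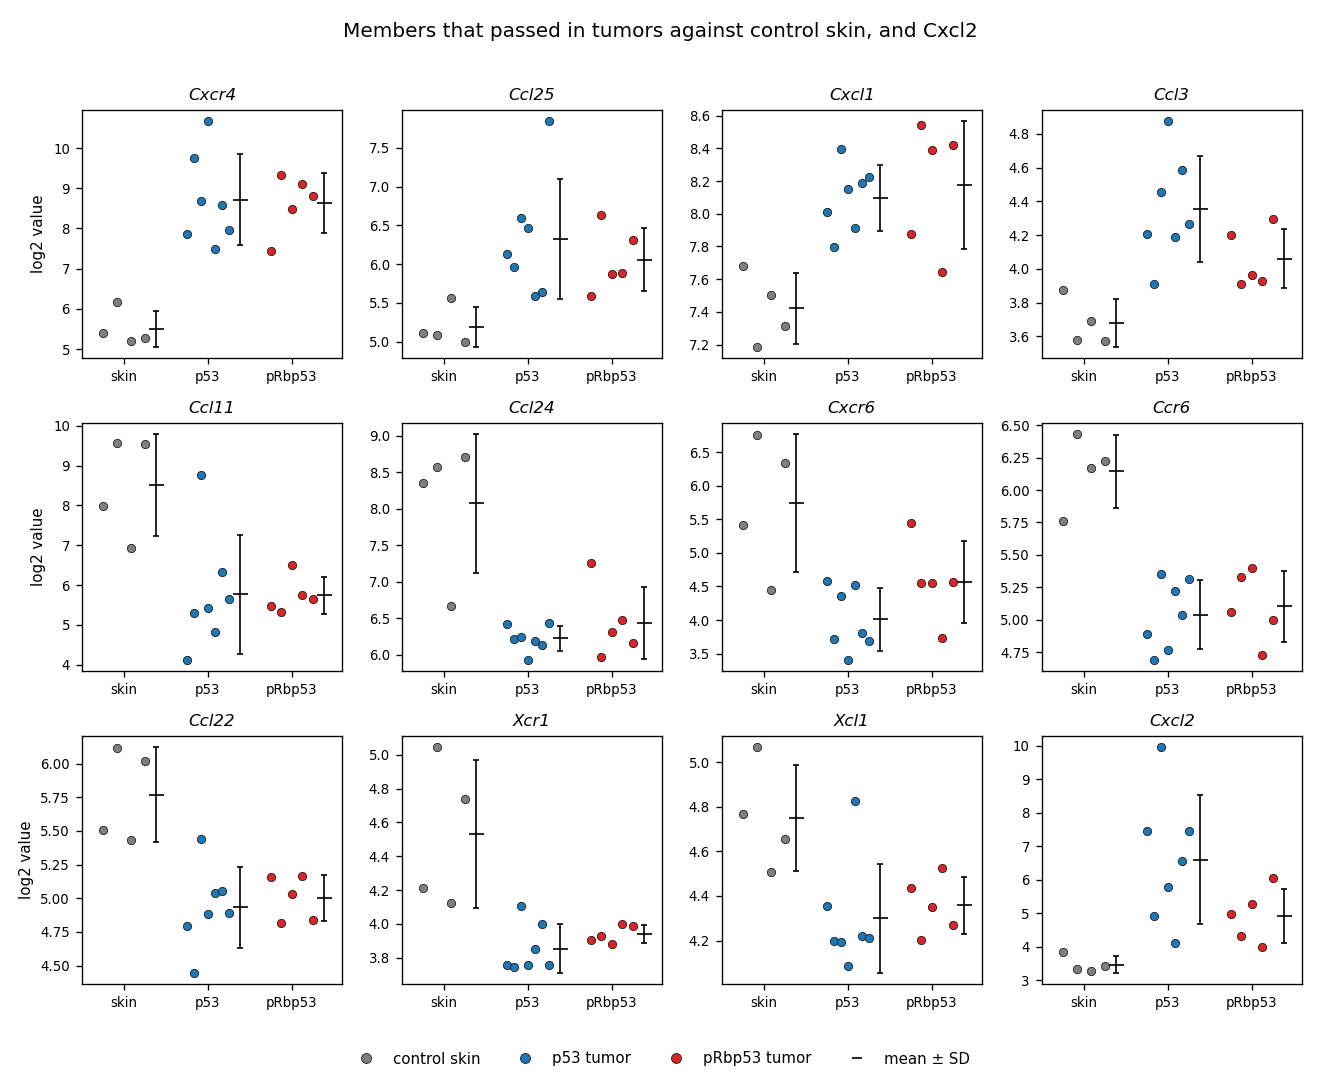
Log2 values of the 11 members that passed in tumors against control skin and of Cxcl2, in 4 control skin arrays, 7 p53 tumors and 5 pRbp53 tumors, each panel with its own axis; points are arrays, bars mean and SD. Cxcr4, Ccl25, Ccl3 and Cxcl2 do not overlap with control skin from above, nor Ccr6 and Xcr1 from below.

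The keratinocyte ligands did not pass. Ccl27a lay between 7.13 and 7.36 in control skin and between 5.91 and 8.34 in tumors, and Cxcl14, a ligand abundant in normal epidermis, lay between 9.50 and 10.32 in control skin and between 5.67 and 11.98 in tumors (-1.61 ± 0.95). Ccl17 and Ccl28 stayed between 4.02 and 5.86 in all arrays. Cxcl17, a mucosal ligand, was at 8.05 and 7.0 in p53 tumors 2 and 4 and between 5.48 and 6.13 in the other 14 arrays. The same tumors were the highest for Ccr7, the receptor that leads cells to lymph nodes, at 7.24 and 8.91, with 3.92 to 5.58 elsewhere. Cx3cr1, the receptor of the membrane-bound ligand Cx3cl1 on monocytes and macrophages, had 5.64, 6.39, 6.50 and 6.0 in control skin and ranged from 6.29 to 9.37 in tumors, and its difference of 1.75 ± 0.57 was just short of the threshold (adjusted p = 0.054). By the methods' t-test Cx3cr1 passed (adjusted p = 0.00604). Limma called Cx3cr1 in several alternatives, such as pRbp53 tumors alone (adjusted p = 0.0244) and the removal of 1 of 5 single arrays (between 0.0301 and 0.0494).

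Genes outside the name rule that are related to chemokines, their induction or their signalling were counted from fixed lists. The atypical receptors Ackr1 and Ackr2, which bind inflammatory chemokines, had differences of -2.79 ± 0.41 and -2.57 ± 0.28 and both fell, and the chemerin gene Rarres2 fell by 2.72 ± 0.83. The other 5 of 8 genes on that list, the platelet chemokines Pf4 and Ppbp among them, did not pass. Of 19 genes of receptor signalling and desensitisation, Rgs18 fell and the other 18 did not pass. Dpp4, a peptidase that trims chemokine N-termini, fell by 4.08 ± 0.58 and was the single gene of 11 on the list of cleavage and binding to pass. On the list of inducing cytokines and NF-kB genes, Il1a fell by 0.80 ± 0.19 and the other 17 of 18 did not pass, and none of 9 interferon signalling genes passed.

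Between the genotypes, no member passed at an adjusted p below 0.1. At this threshold 0.077% of all genes were higher and 0.0824% were lower in the 5 pRbp53 tumors than in the 7 p53 tumors. At an unadjusted p below 0.05, 6 members were higher by limma (Ccl2, Ccl7, Cxcl12, Cxcl13, Cxcr2 and Cxcr3) and 3 by the methods' t-test, and none was lower by either. The share of all genes at that unadjusted level was not computed, so these counts have no background here. Limma with array weights called Cxcl12 (adjusted p = 0.0775). The largest difference was that of Cxcl13, at 3.89 ± 1.26 (adjusted p = 0.362). Its values were 11.29, 8.67, 12.50, 5.29 and 11.34 in pRbp53 tumors 1 to 5 and ranged from 4.07 to 9.47 in p53 tumors, around a median of 5.48. The mixed pRbp53 tumor 4 was low and the 4 spindle tumors were high, and p53 tumor 6, the spindle tumor of the other genotype, was at 4.71.

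Cxcl12 differed by 2.79 ± 0.79 (adjusted p = 0.289) and Ccl2 by 1.97 ± 0.76 (adjusted p = 0.454). Cxcl12 had 11.52, 11.21, 11.89, 8.69 and 12.13 in pRbp53 tumors 1 to 5 and 6.71, 7.77 and 10.66 as lowest, median and highest in p53 tumors. Ccl2 had 9.84, 9.59, 8.76, 6.67 and 11.64 in pRbp53 tumors 1 to 5 and 5.93, 7.61 and 8.61 in p53 tumors, and the groups overlapped for both genes. Histology moves with these values, since 4 of 5 pRbp53 tumors and 1 of 7 p53 tumors were spindle cell carcinomas. With histology as a covariate the differences were 1.07 for Cxcl12, 2.41 for Cxcl13 and 0.63 for Ccl2. That fit compares genotypes only within spindle tumors (4 pRbp53, 1 p53) and mixed tumors (1 pRbp53, 2 p53). In each class 1 genotype is a single array. For Cxcl12 the mixed pRbp53 tumor 4, at 8.69, lay between the mixed p53 tumors, at 7.77 and 10.66. Within the spindle tumors the differences of Cxcl12, Cxcl13 and Ccl2 were 2.40, 6.24 and 2.35. With a single p53 tumor its spread is taken from the pRbp53 tumors, and these values are given as a description.

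**Figure D3:**
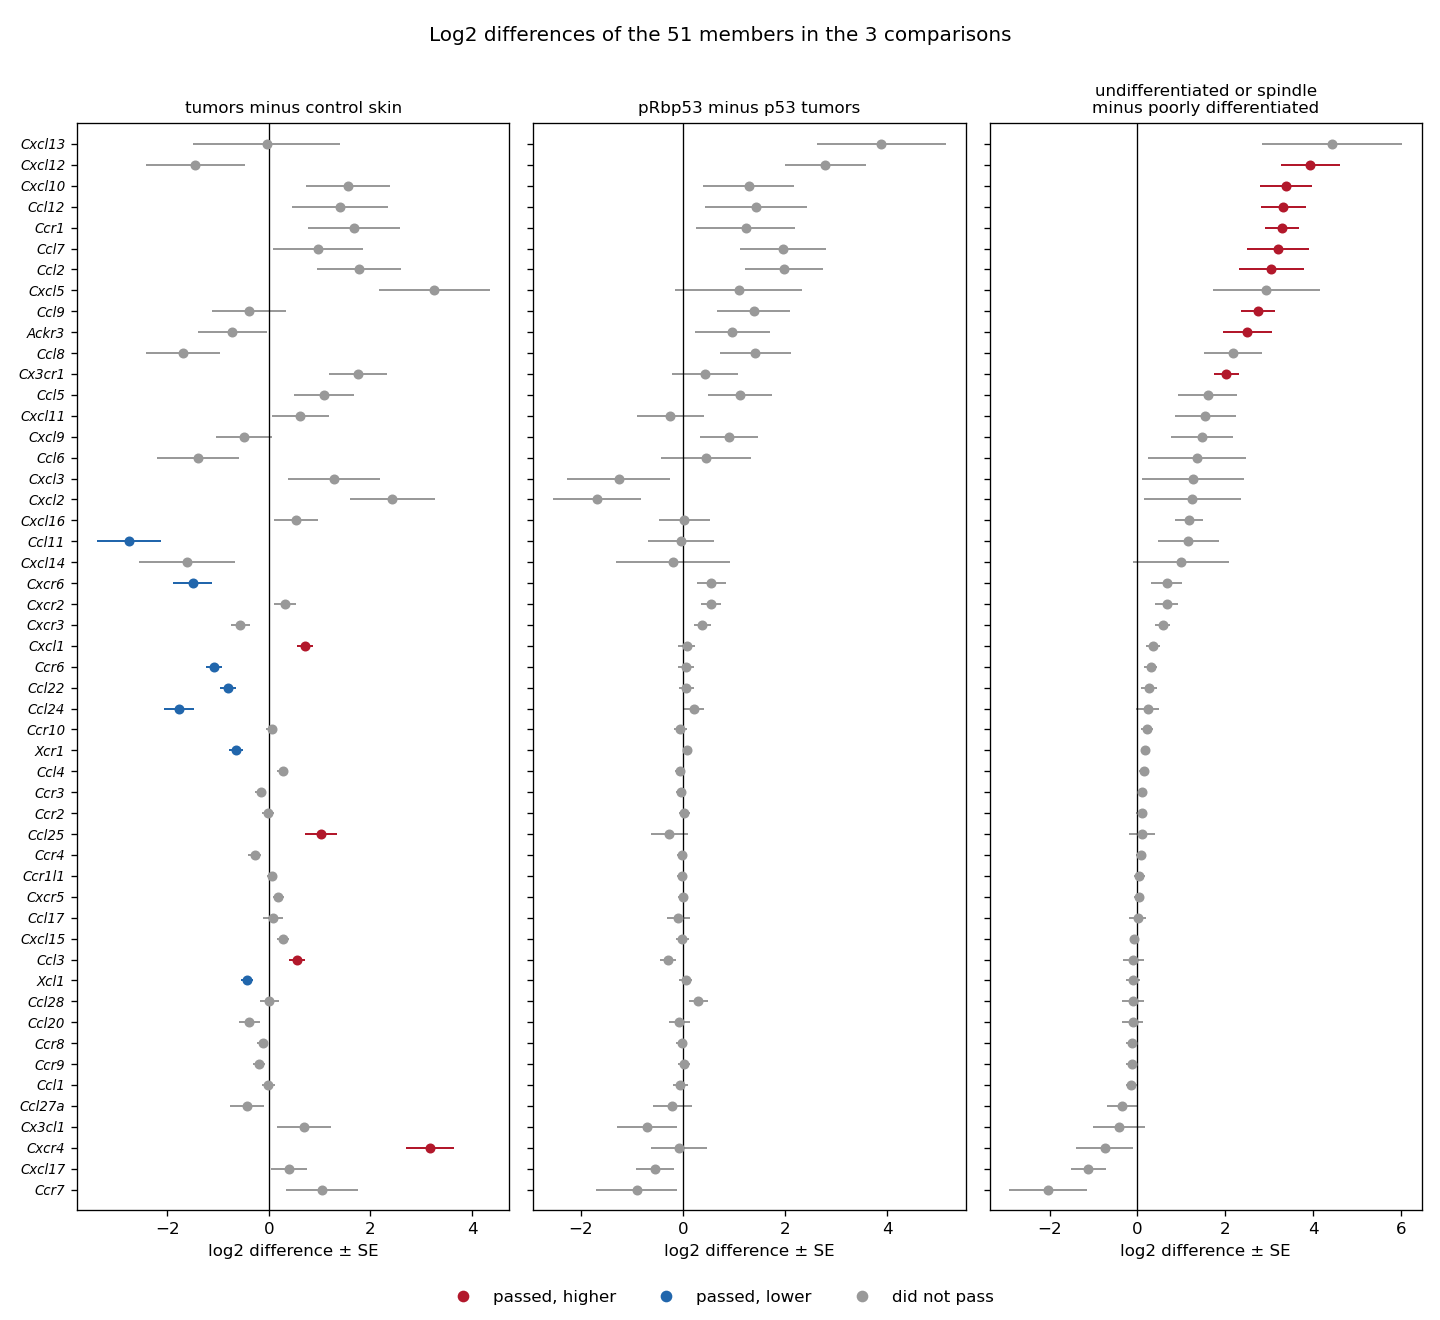
Log2 differences with SE of the 51 members in tumors minus control skin, in pRbp53 minus p53 tumors and in undifferentiated or spindle minus poorly differentiated tumors, in red where the member passed as higher, blue as lower and grey where it did not pass. All grey points in the middle panel mark the comparison in which no member passed, and the 9 red points on the right are all above 2.

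The histological classes were compared next. In the 6 undifferentiated or spindle tumors, 9 members were higher than in the 3 poorly differentiated tumors, none was lower, and 42 did not pass (limma, adjusted p below 0.05). The share that passed as higher was 17.6%, against 4.49% of all genes, and none passed as lower, against 4.64% of all genes. Lower at an unadjusted p below 0.05 were 2 members by limma, Ccr7 and Cxcl17, and 0 by the methods' t-test. The share of all genes at that unadjusted level was not computed. The 9 members were the monocyte attractants Ccl2, Ccl7 and Ccl12, the macrophage inflammatory ligand Ccl9 with its receptor Ccr1, the fractalkine receptor Cx3cr1, the interferon-induced Cxcl10, and Cxcl12 with its scavenger Ackr3. The median difference over all members was 0.30, against 0.02 over all genes. The classes did not overlap for 13 members with higher values in undifferentiated or spindle tumors (25.5%), against 8.45% of all genes, and for none with lower values, against 7.49% of all genes.

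Cxcl12 had the largest difference that passed, 3.94 ± 0.67 (15.4-fold, adjusted p = 0.0101). It had 6.71, 7.37 and 6.84 in the poorly differentiated p53 tumors 2, 4 and 5, and 9.29, 11.37 and 12.13 as lowest, median and highest of the undifferentiated or spindle tumors. The control skin values, 10.74 to 11.22, lay within the range of the latter and far above the poorly differentiated tumors. Within the second class, the p53 tumors 3 and 6 were at 9.45 and 9.29 and the 4 pRbp53 tumors at 11.21 or more. A further probeset of Cxcl12 differed by 4.58 ± 0.76 and passed, and the third one was flat, between 4.87 and 5.45 in all arrays. Ackr3 had 9.61, 7.49 and 6.95 in the poorly differentiated tumors and 9.95, 10.39 and 11.18 in the other class, a difference of 2.50 ± 0.55 (adjusted p = 0.0286). Control skin held 10.06 to 11.02, so for Ackr3 too the poorly differentiated tumors were the low group. Cxcr4, the signalling receptor of the same ligand, differed by -0.74 ± 0.65 and did not pass.

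The monocyte and macrophage genes followed. Ccr1 had 5.10, 5.75 and 5.31 in the poorly differentiated tumors and 7.88, 8.69 and 9.53 as lowest, median and highest in the other class, a difference of 3.30 ± 0.39 (9.87-fold, adjusted p = 0.0016). Its ligand Ccl9 had 6.99, 7.80 and 7.34 against 9.41, 9.91 and 11.16, a difference of 2.74 ± 0.38 (adjusted p = 0.0041). The gap between the classes was 2.13 log2 units for Ccr1 and 1.61 for Ccl9. Ccl12 had 5.68, 6.57 and 6.07 against 8.28, 9.45 and 10.40 and differed by 3.32 ± 0.51 (adjusted p = 0.0063). Cx3cr1 had 6.55, 6.67 and 7.15 against 8.09, 8.85 and 9.37, which is 2.03 ± 0.27 (4.08-fold, adjusted p = 0.0036). In control skin Ccr1 lay between 4.26 and 6.48 and Cx3cr1 between 5.64 and 6.50, below every undifferentiated or spindle tumor, whereas Ccl9 lay between 8.15 and 10.37 and overlapped them.

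Ccl2 and Ccl7 rose as well but with more spread. Ccl2 had 5.93, 6.78 and 6.15 in the poorly differentiated tumors and 7.61, 9.17 and 11.64 in the other class (3.05 ± 0.75, 8.30-fold, adjusted p = 0.0435), and Ccl7 had 4.58, 4.76 and 5.10 against 5.90, 7.98 and 10.02 (3.20 ± 0.71, 9.19-fold, adjusted p = 0.029). The highest value of both was in pRbp53 tumor 5. These neighbours in the genome lost their calls together when 1 of 7 arrays was left out, namely p53 tumor 2, 3, 4 or 5 or pRbp53 tumor 1, 2 or 3, with an adjusted p between 0.0561 and 0.133 for Ccl2 and between 0.0512 and 0.095 for Ccl7. Ackr3 lost its call without p53 tumor 3, 4 or 5 or pRbp53 tumor 1, 2 or 5 (adjusted p between 0.0501 and 0.113). Ccl8, another ligand of the same gene run, had 7.23, 8.67 and 9.23 against 8.71, 10.98 and 11.41 and did not pass (2.18 ± 0.66, adjusted p = 0.0877).

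Ccr2, the receptor of Ccl2, Ccl7 and Ccl12, differed by probeset. The brightest of its 4 probesets, the one used here, was flat, between 6.53 and 7.20 in all 16 arrays, with a difference of 0.10 ± 0.13. The other 3 differed by 2.48 ± 0.48, 2.59 ± 0.53 and 1.07 ± 0.25, and all 3 passed. The first of these had 5.40, 5.18 and 5.58 in the poorly differentiated tumors, 6.50 in p53 tumor 6, 7.87 in p53 tumor 3, and 8.28, 8.30, 7.23 and 9.02 in pRbp53 tumors 1, 2, 3 and 5. Ccr2 is counted above as not passed because the brightest probeset was read. Cxcl16, the ligand of Cxcr6, was also split, with 1.18 ± 0.32 (adjusted p = 0.0592) at the probeset used and 1.44 ± 0.32 (adjusted p = 0.0292) at the other. In all, 18 members had several probesets, and the calls differed between them for 5: Ccr1, Ccr2, Cxcl12 and Cxcl16 between classes and Ccr9 in tumors against control skin, where 1 of 5 probesets passed as lower. Counting a member as called when any of its probesets passed gave 11 members higher between classes. The share of all genes under that rule was not computed, as the 4.49% given above takes 1 probeset a gene.

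Of the interferon-induced ligands, Cxcl10 passed, at 3.39 ± 0.59 (10.5-fold, adjusted p = 0.0112). It had 6.08, 5.33 and 6.05 in the poorly differentiated tumors and 8.13, 8.88 and 10.96 in the other class, and lay between 5.83 and 6.94 in control skin. The highest value was in the undifferentiated p53 tumor 3, which was also the highest tumor for Cxcl11, at 9.24, and for Cxcl9, at 8.0. Cxcl11 and the receptor Cxcr3 did not overlap between the classes but did not pass. Without p53 tumor 4 the adjusted p of Cxcl10 was 0.0504. On the list of interferon signalling genes, Irf8 (1.93 ± 0.32) and Ifngr1 (1.41 ± 0.24) rose and the other 7 of 9 did not pass.

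The largest differences that did not pass were those of Cxcl13, at 4.44 ± 1.60 (adjusted p = 0.142), and Cxcl5, at 2.94 ± 1.23 (adjusted p = 0.204). Cxcl13 had 4.91, 4.07 and 5.60 in the poorly differentiated tumors and 4.71, 9.98 and 12.50 as lowest, median and highest in the other class. Cxcl5 had 4.42, 6.66 and 3.86 against 5.33, 8.40 and 9.99, and the classes overlapped for both genes. Without p53 tumor 6, the lowest of its class for Cxcl13, that gene passed at 5.35 (adjusted p = 0.0399). Ccl8 passed too without that tumor (2.54, adjusted p = 0.0281). Ccr7 and Cxcl17, high in p53 tumors 2 and 4, passed as lower without p53 tumor 5, the third of the poorly differentiated tumors, at -3.39 (adjusted p = 0.0061) and -1.69 (adjusted p = 0.0087).

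The 3 mixed tumors, left out of this comparison, did not form a group of their own. For Ccr1 p53 tumor 1 was at 7.98, p53 tumor 7 at 5.20 and pRbp53 tumor 4 at 4.73, and for Cx3cr1 they were at 8.56, 6.53 and 6.29. For Ccl9 they were at 10.08, 7.19 and 8.34. On these 3 genes p53 tumor 1 lay within the range of the undifferentiated or spindle tumors, and the other two lay below it. For Cxcl12 the order was another, with p53 tumor 1 at 7.77, pRbp53 tumor 4 at 8.69 and p53 tumor 7 at 10.66.

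**Figure D4:**
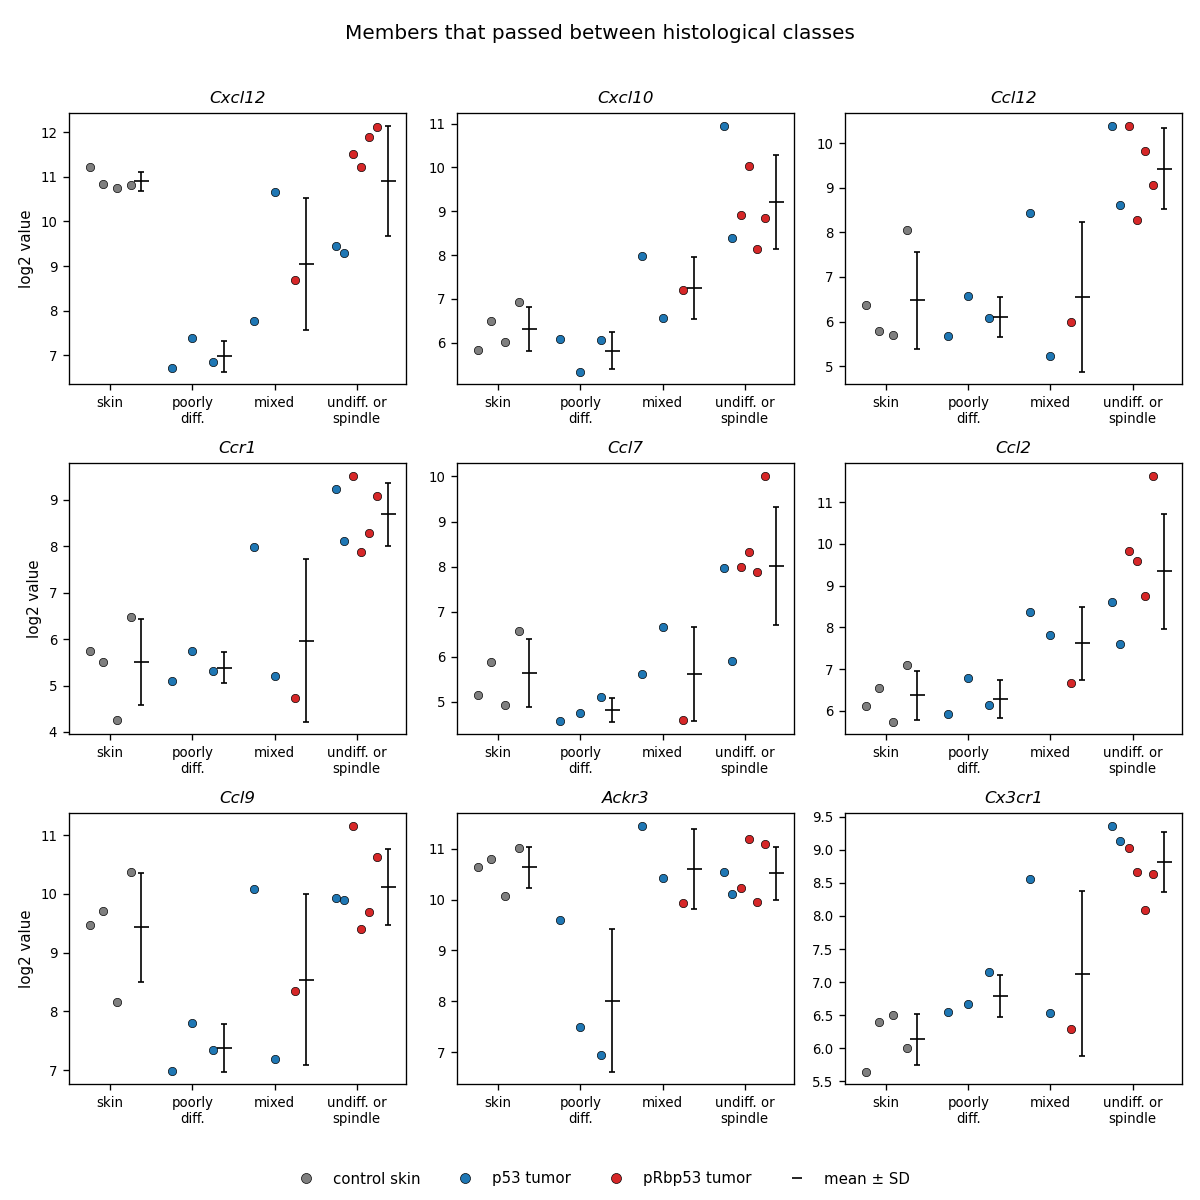
Log2 values of the 9 members that passed between histological classes, by class, with 4 control skin arrays, 3 poorly differentiated, 3 mixed and 6 undifferentiated or spindle tumors and each panel on its own axis; colours give the genotype, bars mean and SD. Undifferentiated or spindle tumors lie above poorly differentiated tumors without overlap in every panel, and control skin lies with the higher class for Cxcl12 and Ackr3 and below every tumor of that class for Ccr1 and Cxcl10.

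All poorly differentiated tumors being p53 tumors, the comparison was repeated within p53 tumors, 2 undifferentiated or spindle against 3 poorly differentiated. The differences were 3.29 for Ccr1, 2.53 for Ccl9, 2.46 for Cx3cr1 and 2.40 for Cxcl12, and these 4 passed. Those of Ccl12 (3.40), Cxcl10 (3.86), Ackr3 (2.31), Ccl7 (2.12) and Ccl2 (1.82) did not pass. Genotype and histology cannot be told apart for the poorly differentiated class.

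Macrophage and fibroblast markers moved with these members. Of 10 macrophage markers, 7 passed as higher in the undifferentiated or spindle tumors and none as lower by limma, with Csf1r at 1.98 ± 0.20, Cd68 at 2.02 ± 0.34 and C1qa at 2.53 ± 0.37, and the list mean was 7.51 to 8.22 in poorly differentiated and 8.59 to 10.26 in undifferentiated or spindle tumors. Of 6 fibroblast markers, 5 passed as higher, with Dcn at 3.02 ± 0.48 and Pdgfra at 3.19 ± 0.80, and the list mean was 8.67 to 10.66 against 12.12 to 13.81. No marker of T and NK cells (8) or B cells (5) passed in either direction by limma. Among 6 endothelium markers, 1 passed as higher. The lists of neutrophils (7), Langerhans and dendritic cells (8) and mast cells (6) had 1 marker each that passed as lower and 0 as higher. Of 5 keratinocyte markers, which include Cdh1, 1 passed as lower and 4 did not pass. The epithelial adhesion gene Cdh1 fell by 6.09 ± 0.50 and Epcam fell by 6.96 ± 0.48 on the log2 scale. Csn2 was above 6 in each poorly differentiated tumor and in p53 tumor 3 alone of the others. The part of cell makeup in the rise of the 9 members was not tested.

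**Figure D5:**
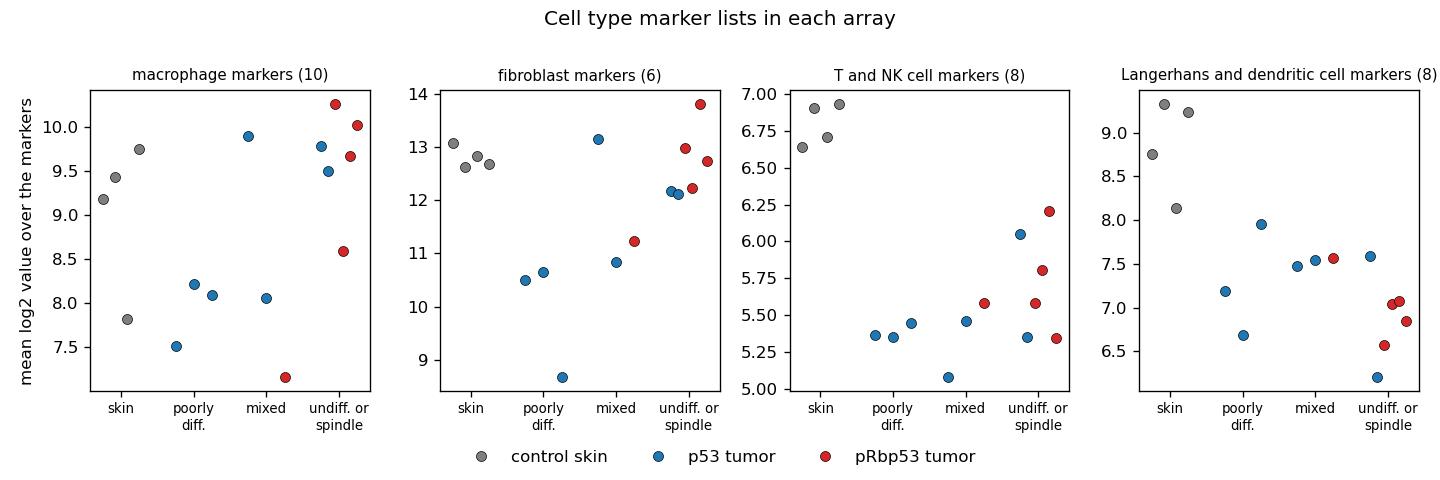
Mean log2 value over the measured markers of macrophages, fibroblasts, T and NK cells, and Langerhans and dendritic cells in each array, by class, with colours for control skin, p53 and pRbp53 tumors. The Langerhans and dendritic cell list includes the member Xcr1. The fibroblast mean is 8.67 to 10.66 in poorly differentiated tumors and 12.12 or more in undifferentiated or spindle tumors, and the T and NK cell mean is higher in each control than in every tumor.

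Genes downstream of the receptors also differed between the classes. Of 19 genes of receptor signalling and desensitisation, 6 rose: Arrb2 (1.74 ± 0.20), which uncouples and internalises receptors, the receptor kinase gene Grk5 (0.91 ± 0.21), and Rac2, Dock2, Prex1 and Pik3r5, which act in leukocyte migration, by 1.04 to 1.90. The other 13 did not pass. Mmp9 (5.38 ± 0.62) and Mmp14 (2.49 ± 0.57), proteases that can cleave chemokines, rose among 11 genes of cleavage and binding. Csf1, the macrophage growth factor, rose by 1.64 ± 0.13 and was the single gene of 18 on the list of inducing cytokines and NF-kB to pass. Of the 8 related genes outside the name rule, Cmklr1, the chemerin receptor, rose by 2.33 ± 0.44, and the other 7 did not pass. Several of these genes, Csf1 aside, are expressed in macrophages, and the part of cell makeup in their rise was not tested.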

How the data were processed

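Per the labels and the methods of the study, total RNA was hybridised to Affymetrix arrays, and the authors deposited log2 values summarised by RMA, which corrects background, quantile-normalises the arrays and joins the probes of a probeset; its version is not given in the sources used here. Of 45101 probesets, 64 array controls were left out. In the platform annotation 34945 probesets had 1 symbol, 932 several and 9160 none. All 45037 probesets were fitted with limma 3.58.1 (lmFit, eBayes) in R 4.3.3, two-sided, with Benjamini-Hochberg adjustment, and called at 0.05, or at 0.1 between genotypes; counts over all genes take 1 probeset a gene. The script was tested on simulated data. Precision is limited by how many arrays each group has.

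The members and lists were chosen with earlier results of these data known. Full values are given for members that passed, for those without overlap in tumors against control skin, and for the 3 largest differences per comparison that did not pass; a few others are given by ranges, and lists by counts. Alternatives were other tests, weights, scalings, filters, covariates and subsets, a replicate block, and leaving out each array; control skin 2 and 4 averaged and the removal of arrays with Csn2 above 6 were added after seeing the data. Same-numbered samples deviated together, with a correlation over 0.1, in 3 of 13 pairs, so the numbers do not pair them.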

Additional observations from a re-analysis of the deposited data

Results flagged for a closer look

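In 7 of 153 groups of 4 to 7 samples, a sample stood apart from the others by Dixon's test; about 1 in 20 groups, or 7.65, would do so by chance. Cxcl12 was at 8.69 in pRbp53 tumor 4, the mixed tumor, with 11.21 to 12.13 in the other 4 pRbp53 tumors. Cxcl3 was at 5.34 in pRbp53 tumor 5, above the other 4 of its genotype. The remaining 5 concerned dim probesets: Ccr1l1 was low in control skin 3 (3.68) and p53 tumor 4 (3.75), and Ccr9 was high in p53 tumor 2 (4.20), Cxcl15 in p53 tumor 1 (4.69) and Xcl1 in p53 tumor 5 (4.83).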

How the results depend on the processing

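Cxcr4 and Cxcl1 kept their calls in tumors against control skin in all 29 alternatives. In that comparison 4 members were called higher and 7 lower. Array weights gave 15 and 13, the methods' t-test 9 and 1, and pRbp53 tumors alone 7 and 4. Of all 45037 probesets, the main fit called 5949, array weights 14405, that t-test 8987 and pRbp53 tumors alone 8237. Leaving out each array gave 2 to 7 members higher and 5 to 8 lower. Brighter probesets alone gave 2 lower, with Ccl22, Ccr6, Cxcr6, Xcl1 and Xcr1 not entering the fit. An adjusted p under 0.01, and control skin 2 and 4 averaged, each gave 2 higher. Between genotypes, array weights gave 1 higher, while 288 of all 45037 probesets passed, against 89 in the main fit. Between histological classes, 9 members were higher and 0 lower. With p53 tumors alone 4 were higher, while 827 of all 45037 probesets passed, against 3326 in the main fit. An adjusted p under 0.01 gave 4 higher, and array weights gave 1 lower. Leaving out each array gave 5 to 11 higher and 0 to 2 lower. With the replicate number as a block 0 were higher, and 0 of all 45037 probesets passed. That fit spends most of its 9 arrays on the numbers, which do not pair the samples. In tumors against control skin the block left 3 higher and 5 lower, while 5281 of all 45037 probesets passed. Between histological classes, genotype as a covariate left 7 higher, with Cxcl11 gained and Ackr3, Ccl2 and Ccl7 lost. In that fit 2024 of all 45037 probesets passed, against 3326 in the main fit. Of the alternative values of the members given in full, each in the comparison it was given for, 594 kept direction and side of the threshold, 83 lost and 19 gained a call, and none changed direction; other causes were not tested. Leaving out control skin 3 and p53 tumor 7 could not be fitted between classes, as neither array is in that comparison.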
